A study of Mus musculus with 9 samples.

Results

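The blood transcriptome of arthritic mice after 0.1 THz irradiation was compared with that of healthy control mice, over all genes. The comparison used 6 of the 9 libraries of the study, 3 from the CIA+THz group and 3 from the Ctrl group, and each library held 20926 genes. The mice were male DBA/1 mice, 7 weeks old when they were divided into groups. The sample labels give the same age, but the immunization and the irradiation course came after that division. The age at blood collection is not stated in the study. Ctrl mice had neither arthritis nor irradiation. CIA+THz mice had collagen-induced arthritis, raised by an injection of chick type II collagen in complete Freund's adjuvant and a booster in incomplete adjuvant. Their swollen ankles were then irradiated at 0.1 THz, which lies between microwaves and infrared light, for 30 min on each of 14 days under isoflurane anesthesia. The CIA mice, with the same arthritis and no irradiation, also gave 3 libraries, and their values are set beside those of CIA+THz. Whether Ctrl mice received adjuvant or anesthesia, and whether a library came from 1 mouse or from several, is not given in the sources used here. Collagen immunization, arthritis, irradiation and anesthesia therefore cannot be told apart in CIA+THz against Ctrl, and the p-values measure only the spread between these libraries.

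Collagen-induced arthritis is a mouse model of rheumatoid arthritis in which T cells and antibodies against type II collagen drive joint inflammation. Circulating neutrophils and monocytes enter the inflamed joint, while the marrow releases new granulocytes and monocytes into the blood. Monocytes, B cells and dendritic cells show antigen to T helper cells on MHC class II molecules. The comparison asks which genes differed from the healthy level after the irradiation course.

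The unit was the FPKM, the fragments mapped to a gene scaled by its transcript length and by the library total. Each library was further divided by 1 factor, between 0.847 and 1.24, so that the median gene was level across libraries. Fold changes are differences in log2(rescaled FPKM + 0.1), a scale on which the change of a gene near 0 is understated. As FPKM holds no counts, the depth is unknown. The Ctrl libraries listed between 11816 and 12264 genes above 0 and the CIA+THz libraries between 12449 and 12807. The tissue is labelled as blood leukocytes, but the study describes total blood RNA, and Alas2, the first enzyme of heme synthesis in red cell precursors, took between 11.4% and 14.0% of the summed FPKM in CIA+THz and between 14.4% and 16.6% in Ctrl. Markers of neutrophils, monocytes, T cells and B cells were present in every library.

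A gene met the criterion when its unadjusted limma p was under 0.05 and its log2 fold change exceeded 0.67 in size. Of 12366 genes tested, 975 (7.88%) did so, of which 574 (4.64%) had the higher level in CIA+THz and 401 (3.24%) the higher level in Ctrl. A log2 fold change above 0 was found in 53.7% of the genes. With the Benjamini-Hochberg adjustment, 13 genes (0.105%) had a p under 0.05. "Rose" and "fell" below refer to the unadjusted criterion. The split between higher and lower rested on the scaling. On FPKM as deposited, 1600 genes were higher and 120 lower, because the median log2 fold change over all genes was then 0.33 in place of 0.04. The Ctrl library of replicate 3 also mattered, since 1487 genes passed without it. In CIA against Ctrl, which shares the 3 Ctrl libraries, 1118 genes (9.04%) passed, 592 of them higher (4.79%) and 526 lower (4.25%). The adjusted threshold was passed by 0.154% of genes in that comparison, and 49.3% had a log2 fold change above 0.

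**Figure D1:**
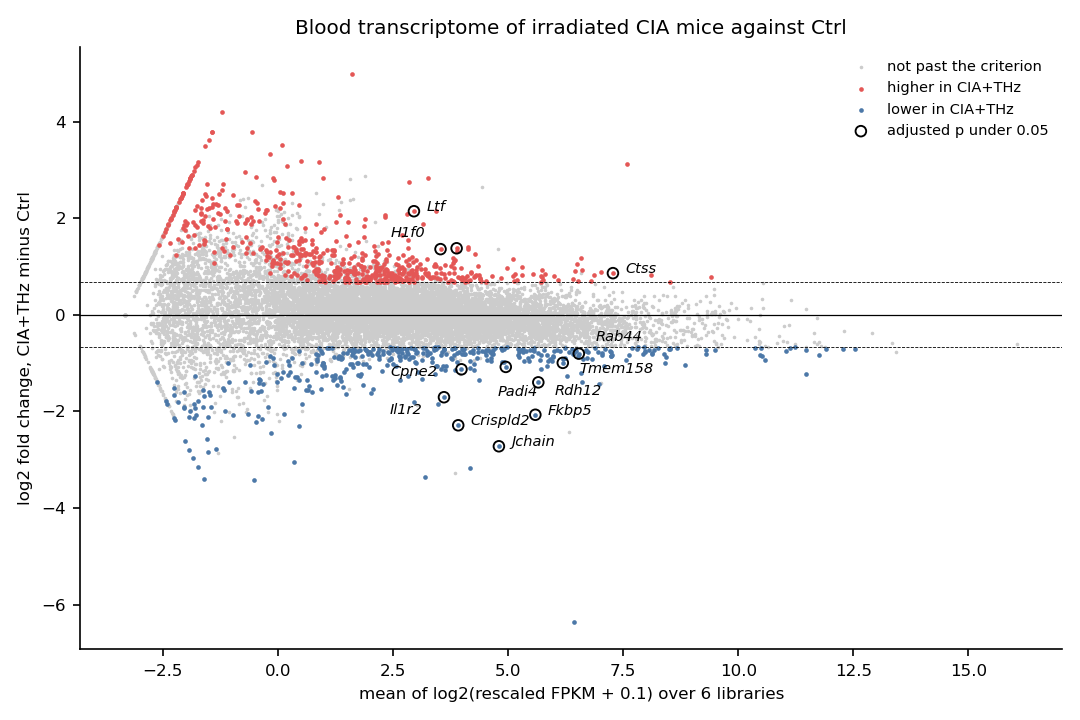
Each point is 1 of the 12366 genes tested, with the mean of log2(rescaled FPKM + 0.1) over the 6 libraries on the x axis and the log2 fold change of CIA+THz against Ctrl on the y axis. Red and blue points are the 574 higher and 401 lower genes past the criterion, dashed lines mark its fold limit of 0.67, and the 13 circled genes passed the adjusted threshold, 12 of them with their names.

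Of the 13 genes with an adjusted p under 0.05 in limma, 9 fell and 4 rose in CIA+THz. All 13 kept the unadjusted criterion when any 1 library was left out, but not all kept an adjusted p under 0.05. None of them overlapped between the Ctrl and CIA+THz groups, as was the case for 24% of all genes tested. As the 13 were chosen by p over these same libraries, both results follow largely from that choice.

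Crispld2, a secreted protein that binds lipopolysaccharide, had the smallest p. Its rescaled FPKM was 34.8, 34.8 and 30.4 in the Ctrl libraries, 6.26, 7.35 and 6.62 in CIA+THz and 6.08, 11.5 and 5.47 in CIA. It fell from 33.3 ± 2.51 (SD, n = 3) in Ctrl to 6.74 ± 0.559 in CIA+THz, by 2.29 ± 0.13 (SE) on the log2 scale, with an adjusted p of 0.00259 by limma. The Crispld2 gene lies on chromosome 8 (chr8:119992438-120052793 of GRCm38).

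Jchain, on chromosome 5 (chr5:88519809-88527891), encodes the chain that joins secreted IgM and IgA into polymers, and fell the most of the 13. It stood at 71.4, 80.4 and 63.5 in Ctrl, at 6.88, 14.7 and 12.2 in CIA+THz and at 6.69, 5.20 and 6.45 in CIA. The fall of CIA+THz below Ctrl was 2.72 ± 0.27 on the log2 scale, or 6.60-fold (adjusted p = 0.0305 by limma). The 3 CIA libraries were lower still than every CIA+THz library.

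Fkbp5 encodes a glucocorticoid-induced co-chaperone that lowers the hormone affinity of the glucocorticoid receptor. It was 77.9, 102 and 121 in Ctrl and 22.1, 22.4 and 25.98 in CIA+THz, a fall of 2.07 ± 0.17 on the log2 scale (adjusted p = 0.0158 by limma). In CIA it was 15.8, 67.0 and 17.4, so that replicate 2 stood apart from the other two CIA libraries. The same CIA library was the highest of its group for Crispld2, Rdh12, Cpne2, Il1r2, Tmem158 and Rab44. Of 11 glucocorticoid response genes tested, Fkbp5 was the only one that passed the criterion, with a list median of -0.29 (-0.03 on FPKM as deposited).

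The other lower genes of the 13 were Rdh12, Il1r2, Padi4, Cpne2, Tmem158 and Rab44. Rdh12, a retinol dehydrogenase, was 88.0, 85.5 and 72.6 in Ctrl and 30.3, 31.8 and 30.7 in CIA+THz (log2 fold change -1.40, adjusted p = 0.0135 by limma). Il1r2, the decoy receptor that traps interleukin-1, was 22.5, 26.9 and 17.4 in Ctrl and 7.34, 6.74 and 5.91 in CIA+THz (log2 fold change -1.71, adjusted p = 0.0330 by limma). Padi4, the neutrophil enzyme that converts arginine into citrulline, was 49.6, 43.4 and 41.7 in Ctrl and 23.3, 19.5 and 20.7 in CIA+THz (log2 fold change -1.08, adjusted p = 0.0330 by limma). Citrullinated proteins are autoantigens in rheumatoid arthritis. In CIA, Padi4 was 25.6, 31.2 and 38.9, and its log2 fold change of -0.51 against Ctrl missed the fold limit. Rab44, a large Rab GTPase, fell by 0.80 in CIA+THz, where its 3 libraries lay between 67.4 and 74.9 against 117 to 129 in Ctrl. In CIA, Rab44 ranged from 62.1 to 122 and did not pass. Cpne2, a calcium-dependent membrane-binding protein, and Tmem158 fell by 1.13 and 1.00.

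Of the 4 higher genes, Ltf, H1f0 and Ctss are described here. Ltf, the iron-binding lactoferrin of neutrophil secondary granules, was 3.19, 3.74 and 3.85 in Ctrl, 11.9, 20.5 and 17.4 in CIA+THz and 29.8, 65.7 and 122 in CIA. It was 4.42-fold higher in CIA+THz than in Ctrl (log2 fold change 2.14 ± 0.22, adjusted p = 0.0305 by limma), and the 3 groups did not overlap. Ctss, the lysosomal protease that trims the invariant chain of MHC class II, was 114, 122 and 109 in Ctrl, 215, 204 and 208 in CIA+THz and 284, 206 and 266 in CIA. Its log2 fold change in CIA+THz was 0.86 ± 0.09 (adjusted p = 0.0305 by limma). H1f0, the linker histone of non-dividing cells, rose by 1.36.

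**Figure D2:**
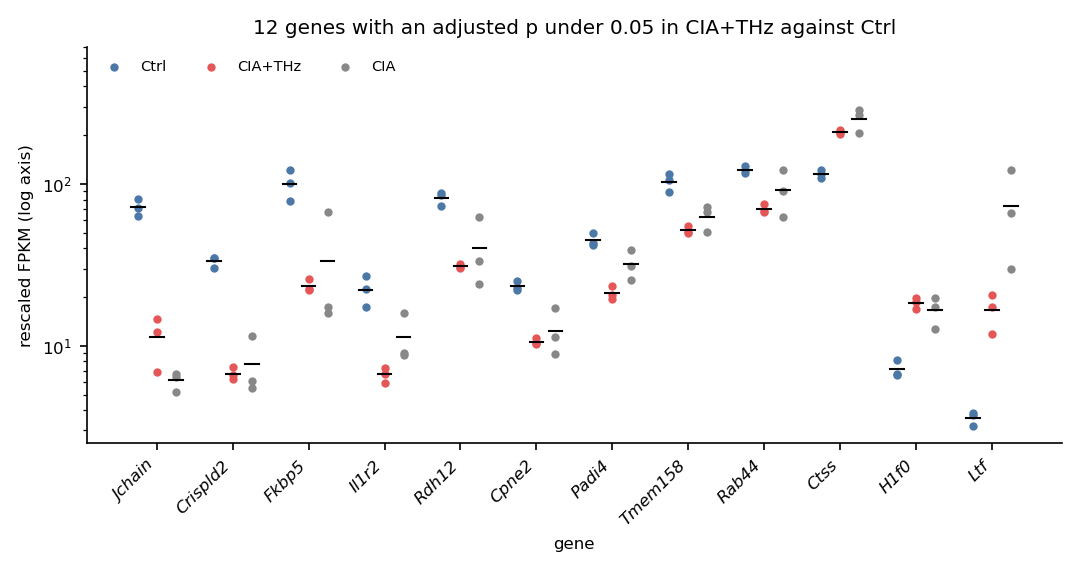
Each dot is the rescaled FPKM of 1 library on a log axis, for 12 of the 13 genes with an adjusted p under 0.05 in CIA+THz against Ctrl, and black bars are group means of 3 libraries. For Jchain the CIA+THz libraries lie between Ctrl and CIA, for Ltf likewise, and for Fkbp5 1 CIA library lies far above the other two.

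Among the 975 genes past the criterion, 385 had a mean rescaled FPKM of at least 5 over the 6 libraries and no overlap between the groups. The 10 of these with the largest rise were Eif3j2, Camp, Pira6, Tmem176b, Ltf, Serpina3g, Ly6i, Fcgr1, Smpdl3b and Dpep2. Camp, the cathelicidin antimicrobial peptide, rose from 1.64, 3.36 and 7.61 in Ctrl to 18.6, 37.3 and 23.7 in CIA+THz (log2 fold change 2.83 ± 0.52, unadjusted p = 0.000826 by limma), and was 68.6, 108 and 155 in CIA. Serpina3g, an inhibitor of cysteine proteases induced in activated lymphocytes and macrophages, was 2.94, 3.11 and 3.94 in Ctrl and 17.3, 9.01 and 19.2 in CIA+THz. Ly6i, a Ly6 surface antigen of myeloid cells, was 1.61, 2.81 and 2.89 in Ctrl and 10.9, 6.76 and 14.2 in CIA+THz. Smpdl3b, a membrane lipid phosphodiesterase that restrains Toll-like receptor signaling, rose by 1.89, and Dpep2, a leukotriene-processing dipeptidase, by 1.64. Pira6, a paired immunoglobulin-like receptor, rose by 2.74, but its gene family holds close copies, so its reads may be divided uncertainly among them.

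The 10 with the largest fall were Jund, Jchain, Crispld2, Fkbp5, Evi2b, Il1r2, Mmp8, Rdh12, Cd59a and Spire1. Mmp8, the neutrophil collagenase, was 238, 275 and 135 in Ctrl and 78.9, 79.8 and 71.5 in CIA+THz (log2 fold change -1.43 ± 0.25, unadjusted p = 0.000576 by limma). Cd59a, which blocks the membrane attack complex of complement on red cells and other cells, was 194, 172 and 114 in Ctrl and 43.1, 72.5 and 68.3 in CIA+THz. Spire1, an actin nucleator, fell by 1.34. Evi2b, a myeloid membrane protein whose gene overlaps Nf1 and Evi2, was 11.3, 62.1 and 12.95 in Ctrl and 7.13, 11.1 and 2.33 in CIA+THz. Its call rested on few libraries, since it missed the criterion without Ctrl replicate 2 (-1.07) or 3 (-2.20) and without CIA+THz replicate 1 (-2.01) or 3 (-1.23).

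MHC class II genes were higher in CIA+THz than in Ctrl as a group. Of 10 members tested, 8 rose, none fell, and all 10 were above Ctrl in every CIA+THz library, as 11.9% of all genes tested were. The list median was 0.79, against 0.04 over all genes, and 1.10 on FPKM as deposited. H2-Ab1, the beta chain of I-A, was 79.4, 101 and 108 in Ctrl, 161, 191 and 175 in CIA+THz and 174, 199 and 131 in CIA (log2 fold change 0.88 ± 0.14, unadjusted p = 0.00032 by limma). H2-Aa, the alpha chain, was 185, 234 and 203 in Ctrl and 321, 410 and 369 in CIA+THz, a rise of 0.82. H2-DMa, H2-DMb1 and H2-DMb2, chains of the peptide-loading molecule H2-M, rose by 0.76, 0.81 and 0.99. Ciita, the coactivator that switches on this family, was 7.72, 10.3 and 10.4 in Ctrl and 13.6, 17.8 and 17.1 in CIA+THz (log2 fold change 0.77), and its value without Ctrl replicate 1 was 0.63, short of the fold limit. H2-Oa (0.97) and H2-Eb1 (0.72), which are named here after their values were seen, completed the 8. H2-Eb1 missed the criterion without CIA+THz replicate 1 (0.84) or 2 (0.47) and without Ctrl replicate 1 (0.50) or 3 (0.78). Cd74, the invariant chain, was 983, 1263 and 1357 in Ctrl and 1666, 2163 and 1827 in CIA+THz, and its log2 fold change of 0.66 lay just under the limit. H2-Ob, a chain of the H2-O regulator, had 0.52. In CIA against Ctrl, 5 of the 10 rose, with a median of 0.67. The smallest adjusted p of the list in CIA+THz was 0.066 by limma.

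The summed level of the 15 B cell markers in the table (Ighm and Ighd were not among them) was between 585 and 727 in Ctrl and between 751 and 981 in CIA+THz, and that of the 17 classical monocyte markers was between 3469 and 3839 in Ctrl and between 4088 and 4389 in CIA+THz. Both moved in the same direction as the MHC class II genes, and their part in that result was not tested. In bulk blood RNA, more or fewer cells of a type and more or less RNA per cell cannot be told apart.

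The proximal promoters of 4 of these genes, all with a match described below, are shown because the group moved together. MHC class II promoters carry an X box, bound by the RFX complex, and downstream of it a Y box, bound by NF-Y, and Ciita docks on both. The letters are those of RefSeq on GRCm38.p6, 150 bases that end at the base before the transcription start, 5′ to 3′ on the strand of the gene. Capitals mark ATTGG, the core of the Y box, or its reverse CCAAT, and AACNGATG, letters found in the X box of several family members, or its reverse CATCNGTT.
H2-Aa (chr17:34287824-34287973, minus strand): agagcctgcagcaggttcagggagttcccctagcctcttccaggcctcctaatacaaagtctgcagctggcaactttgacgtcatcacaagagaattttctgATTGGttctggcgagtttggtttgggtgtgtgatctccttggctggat
H2-Eb1 (chr17:34305717-34305866, plus strand): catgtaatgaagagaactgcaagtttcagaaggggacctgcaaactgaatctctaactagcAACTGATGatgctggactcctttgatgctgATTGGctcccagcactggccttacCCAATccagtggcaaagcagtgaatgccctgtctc
H2-DMb1 (chr17:34153041-34153190, plus strand): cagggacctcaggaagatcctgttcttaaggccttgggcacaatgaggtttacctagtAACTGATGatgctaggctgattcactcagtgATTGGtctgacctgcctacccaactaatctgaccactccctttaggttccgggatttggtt
H2-DMb2 (chr17:34145099-34145248, plus strand): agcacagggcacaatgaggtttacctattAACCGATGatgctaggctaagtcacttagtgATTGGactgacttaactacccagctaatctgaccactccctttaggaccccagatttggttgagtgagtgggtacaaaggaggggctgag
Of the 10 genes, 7 had a promoter in the RefSeq table. ATTGG in either orientation was found in 6 of these 7, against 24.5% of 32851 mouse promoters over the same 150 bases. AACNGATG was found in 3 of the 7, against 1.14% of all promoters. In H2-Eb1 it began 89 bases and in H2-DMb1 92 bases before the start, and ATTGG followed at 59 and 61 bases. H2-DMb2, a close copy of H2-DMb1, held both, at 121 and 90 bases, and reads of this gene pair may be divided uncertainly between them. H2-Aa held ATTGG 48 bases before the start without AACNGATG in this window. H2-Oa and H2-Ob, which are not shown, likewise held ATTGG alone. H2-DMa, which rose by 0.76, held neither in its windows, which end at chr17:34122831 and chr17:34125517. Its annotated span (chr17:34119541-34139101) starts before these windows and overlaps Brd2. Whether they lie at the start used in blood is not known, so they cannot show that H2-DMa lacks the boxes. Both sets of letters were chosen as parts of boxes known in this family, so frequent matches in its members follow from that choice. These matches are descriptions of the letters and do not show binding. Their part in the higher RNA levels was not tested.

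Many monocyte markers were higher in CIA+THz. Of 17 classical monocyte markers tested, 9 rose, 1 fell and 7 did not pass, with a median of 0.72 (1.03 on FPKM as deposited). Tifab, an adaptor that binds TIFA, was 11.2, 8.51 and 13.1 in Ctrl, 27.8, 26.1 and 29.2 in CIA+THz and 39.3, 33.0 and 40.9 in CIA (log2 fold change 1.35 ± 0.17, unadjusted p = 7.14e-05 by limma). Fn1, fibronectin, was 34.4, 27.4 and 43.0 in Ctrl, 58.7, 61.0 and 66.1 in CIA+THz and 121, 97.3 and 111 in CIA. The 3 groups did not overlap for either gene, and CIA+THz lay in the middle. Ly6c2, F13a1 and Lyz2, also markers of these cells, had log2 fold changes of -0.07, -0.16 and 0.13 and did not pass. Ms4a6d rose by 1.01 and Clec4a3 by 0.84. Csf1r, the receptor for M-CSF, was 88.3, 89.3 and 108 in Ctrl and 159, 137 and 150 in CIA+THz, where its 0.65 missed the fold limit, and between 192 and 204 in CIA. Cd14, the lipopolysaccharide co-receptor, was the member that fell, from 103, 90.9 and 68.6 in Ctrl to 46.3, 38.0 and 49.9 in CIA+THz (log2 fold change -0.95). In CIA, Cd14 was 71.3, 83.7 and 78.9, and its log2 fold change of -0.15 did not pass. Ccr2, the receptor that lets monocytes leave the marrow, rose by 0.74, but had 0.63 without Ctrl replicate 3. In CIA against Ctrl, 11 of the 17 rose and none fell.

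Of 14 patrolling monocyte markers, 7 rose and none fell in CIA+THz, with a median of 0.63 (0.93 on FPKM as deposited). That is 50.0% of the list, against 7.88% of all genes tested that passed. Of the 14, 3 had a negative log2 fold change. Treml4, also a marker of these cells, had 0.47 with overlapping groups and did not pass. Nr4a1, the nuclear receptor that patrolling monocytes depend on, was 3.45, 2.33 and 4.84 in Ctrl and 8.33, 7.16 and 8.90 in CIA+THz (log2 fold change 1.23 ± 0.28, unadjusted p = 0.00256 by limma). Cx3cr1, the fractalkine receptor, was 3.86, 14.5 and 21.7 in Ctrl and 27.2, 29.6 and 29.0 in CIA+THz, and its call was lost without any 1 of the CIA+THz libraries, where its log2 fold change was between 1.38 and 1.44. Cd300e rose by 1.93 and Eno3 by 0.93. Ace (0.86) and Adgre4 (0.86) also rose, but had 0.59 and 0.62 without Ctrl replicate 2, and Ear2 (0.78) missed the criterion without CIA+THz replicate 1 (0.72) or 3 (0.68) or Ctrl replicate 3 (0.55). In CIA against Ctrl, 1 of the 14 rose and 1 fell, with a median of 0.32, and the difference between the CIA+THz and CIA libraries was not tested here.

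Some lipid-handling and membrane genes of monocytes and macrophages also rose. Of 16 cholesterol handling genes, 6 rose and none fell, with a median of 0.30 (0.61 on FPKM as deposited). Apoe, the lipoprotein ligand, was 83.9, 89.0 and 88.0 in Ctrl, 161, 167 and 135 in CIA+THz and 305, 308 and 342 in CIA (log2 fold change 0.83 ± 0.11, unadjusted p = 9.64e-05 by limma). Its groups were separate, with CIA+THz between Ctrl and CIA. Lrp1, the lipoprotein and clearance receptor, was 9.05, 7.53 and 11.7 in Ctrl and 21.8, 20.2 and 20.9 in CIA+THz. Scarb1, the HDL receptor, rose by 1.15, and Trem2, a lipid-sensing receptor of macrophages, by 1.93. Nr1h3, the oxysterol receptor LXR alpha, rose from 0.141, 0 and 0.272 to 0.574, 0.736 and 0.595, levels too low for a reliable fold. Of 8 Ms4a and Tmem176 genes, 4 rose, none fell and 4 did not pass, of which 3 had a negative log2 fold change. Tmem176b and Tmem176a, ion channel-like proteins of antigen-presenting cells whose genes overlap each other, rose by 2.16 and 2.06, and Tmem176b went from 4.84, 4.90 and 5.20 to 26.9, 30.7 and 13.9. Ms4a4a rose by 1.21. Ms4a8a (0.71) missed the criterion without CIA+THz replicate 1 (0.61) or 3 (0.70) or Ctrl replicate 1 (0.55).

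Complement and Fc receptor genes moved unevenly, with 4 of 18 higher, 1 lower and a median of 0.11. Fcgr1, the high-affinity IgG receptor, was 4.69, 1.61 and 1.71 in Ctrl, 12.03, 8.89 and 9.29 in CIA+THz and 18.5, 12.3 and 17.5 in CIA (log2 fold change 2.03 ± 0.40, unadjusted p = 0.00124 by limma). Fcgrt, the IgG recycling receptor, rose by 0.98. C1qa, a chain of the classical pathway starter C1q, was at 0.442, 0 and 0.700 in Ctrl and at 1.45, 0.991 and 1.37 in CIA+THz, and missed the criterion without any 1 of the CIA+THz libraries, with log2 fold changes between 1.85 and 2.10. Cd59a, described above, was the member that fell.

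**Figure D3:**
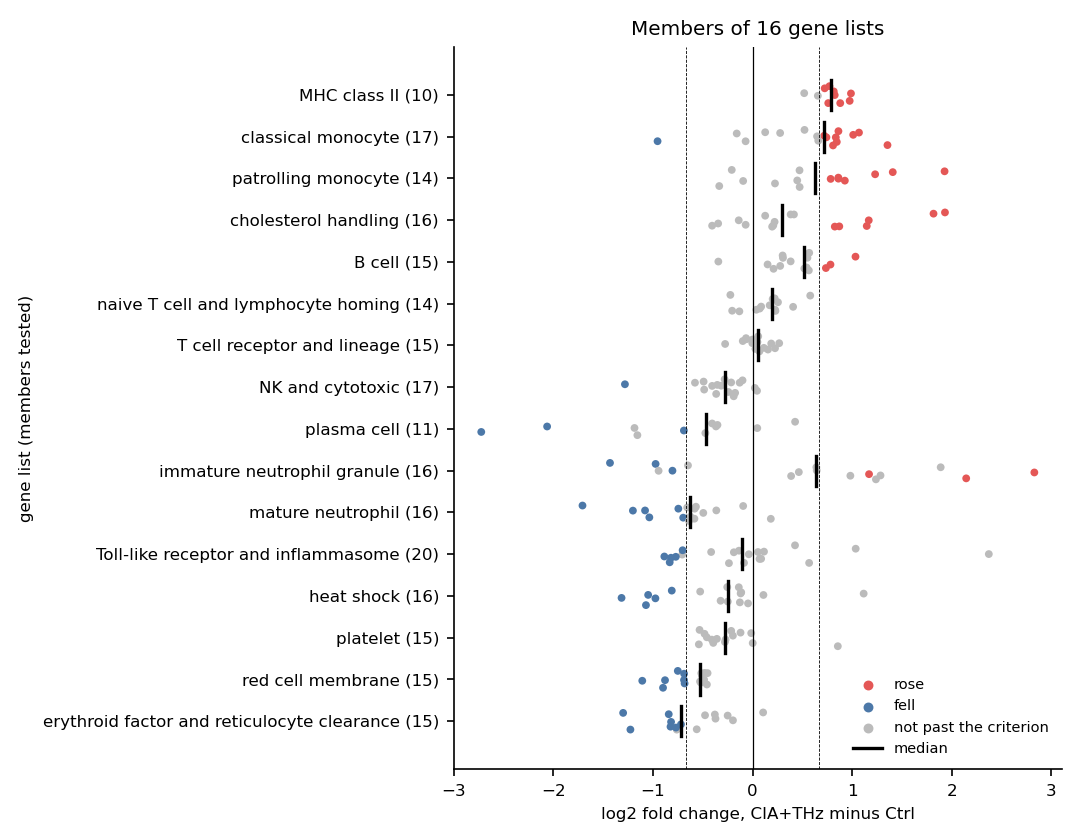
Each dot is the log2 fold change of 1 gene in CIA+THz against Ctrl, for the tested members of 16 gene lists, with dashed lines at the fold limit of 0.67 and black bars at list medians. MHC class II and monocyte members lie to the right (medians 0.79, 0.72 and 0.63), and mature neutrophil and erythroid members to the left (medians -0.63 and -0.72).

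B cell genes were partly higher in CIA+THz. Of 15 B cell markers tested, 3 rose (20.0%, against 7.88% of all genes tested that passed) and none fell. The list median was 0.52 (9 rose with a median of 0.83 on FPKM as deposited). In every CIA+THz library, 10 of the 15 were above Ctrl, as 11.9% of all genes tested were. Fcer2a, the low-affinity IgE receptor CD23 of mature B cells, was 7.58, 7.15 and 11.5 in Ctrl and 17.6, 19.7 and 15.7 in CIA+THz (log2 fold change 1.03 ± 0.21, unadjusted p = 0.00131 by limma). In CIA it was 11.6, 12.6 and 10.5 and did not pass. Pax5, the B lineage factor, rose by 0.78, and had 0.57 without Ctrl replicate 1. Blk (0.74) missed the criterion without CIA+THz replicate 2 (0.74) or 3 (0.63) or Ctrl replicate 1 (0.66) or 2 (0.54). The count of B cell markers that rose was 1 without Ctrl replicate 1 and 5 without CIA+THz replicate 1.

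Of 11 plasma cell genes tested, 3 fell and none rose, with a median of -0.47 (-0.21 on FPKM as deposited). Derl3, which helps draw misfolded protein out of the endoplasmic reticulum, was 2.23, 1.62 and 2.70 in Ctrl and 0.174, 0.641 and 0.658 in CIA+THz (log2 fold change -2.06). Mzb1, which aids antibody folding, was 10.7, 16.7 and 13.6 in Ctrl and 8.08, 10.5 and 6.79 in CIA+THz (log2 fold change -0.69). Mzb1 missed the criterion without CIA+THz replicate 1 (-0.67) or 3 (-0.54) or Ctrl replicate 2 (-0.53). The summed level of the 12 plasma cell markers in the table, Jchain included, was between 262 and 314 in Ctrl, between 187 and 200 in CIA+THz and between 180 and 214 in CIA. Jchain alone had a mean of 71.8 in Ctrl, 11.3 in CIA+THz and 6.11 in CIA, so much of this difference came from 1 gene. In CIA, 4 of the 11 fell.

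None of 15 T cell receptor and lineage genes passed the criterion in either direction, and their median was 0.05 (0.35 on FPKM as deposited). Cd3e, a signaling chain of the receptor, was 32.1, 30.0 and 33.7 in Ctrl and 38.3, 30.6 and 32.0 in CIA+THz. Cd4 was 40.7, 57.9 and 60.0 in Ctrl and 57.3, 58.0 and 45.3 in CIA+THz, and Cd8a was between 20.0 and 21.2 in Ctrl and between 17.4 and 23.1 in CIA+THz. The groups overlapped for all 3 genes. None of 14 naive T cell and homing genes passed either. Of 17 costimulation, checkpoint and helper genes, 2 rose. Foxp3, the master factor of regulatory T cells, was 3.12, 1.94 and 2.64 in Ctrl, 4.76, 3.91 and 5.28 in CIA+THz and 3.57, 5.30 and 5.501 in CIA (log2 fold change of CIA+THz 0.85 ± 0.25, unadjusted p = 0.011 by limma). Without Ctrl replicate 2, its 0.67 did not pass the fold limit. Havcr2, the checkpoint TIM-3, was 0.802, 0.414 and 1.89 in Ctrl and 2.16, 1.71 and 3.17 in CIA+THz, overlapped between the groups and kept its call only in the fit without Ctrl replicate 3. Cd28, the costimulatory receptor, was 15.3, 17.4 and 15.8 in Ctrl, 11.9, 10.8 and 11.2 in CIA+THz and 7.32, 5.91 and 7.99 in CIA, with a log2 fold change of -0.51 in CIA+THz that missed the limit and of -1.19 in CIA that passed.

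Of 17 NK and cytotoxic genes tested, 1 fell in CIA+THz, against 7 in CIA. Klre1, a lectin-like NK receptor, was 2.96, 4.10 and 4.84 in Ctrl, 1.94, 1.17 and 1.61 in CIA+THz and 1.40, 0.199 and 0.246 in CIA (log2 fold change of CIA+THz -1.28). Gzma, granzyme A, was 77.7, 62.6 and 91.2 in Ctrl and 56.2, 39.9 and 71.3 in CIA+THz, with overlap between the groups. The list median of -0.28 was 0.01 on FPKM as deposited, so its direction rested on the scaling. The number that fell was 3 without CIA+THz replicate 3 and 2 without Ctrl replicate 2. Among 11 dendritic cell genes, Xcr1, the chemokine receptor of cross-presenting dendritic cells, fell by 1.39 from levels of 1.18 to 2.01 in Ctrl. Ccr9 fell by 0.87, but missed the criterion without CIA+THz replicate 1 (-0.76) or 2 (-0.81) or Ctrl replicate 3 (-0.68). Of 11 eosinophil and basophil genes, Fcer1a, the IgE receptor alpha chain, rose by 0.68, and had 0.65 without CIA+THz replicate 3 and 0.58 without Ctrl replicate 2.

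Several mature neutrophil genes fell in CIA+THz. Of 16 mature neutrophil genes tested, 6 fell and none rose, 12 lay below Ctrl in every CIA+THz library (12% of all genes tested did) and the median was -0.63 (-0.32 on FPKM as deposited). Fpr1, a receptor for formylated bacterial peptides, was 162, 177 and 106 in Ctrl, 67.2, 64.1 and 57.9 in CIA+THz and 61.1, 82.3 and 75.9 in CIA (log2 fold change of CIA+THz -1.20 ± 0.19, unadjusted p = 0.000339 by limma). Retnlg, resistin-like gamma, was 811, 795 and 441 in Ctrl, 351, 309 and 304 in CIA+THz and 488, 656 and 575 in CIA. It fell by 1.04 in CIA+THz, and its -0.21 in CIA did not pass. S100a8, a subunit of calprotectin, fell by 0.70 but kept its call only without Ctrl replicate 3, and its partner S100a9 had -0.58, with overlapping groups. Fpr2 fell by 0.74, but had -0.63 without CIA+THz replicate 2, -0.66 without Ctrl replicate 1 and -0.63 without Ctrl replicate 2. Cxcr2, the receptor for neutrophil-attracting chemokines, was between 642 and 785 in Ctrl and between 421 and 479 in CIA+THz, and its -0.64 missed the fold limit. In Ctrl replicate 3 most of these genes were lower than in Ctrl replicates 1 and 2, and 11 of the 16 fell without it. The count was 4 without Ctrl replicate 1 or Ctrl replicate 2, and 5 without CIA+THz replicate 3. On FPKM as deposited it was 4. In CIA against Ctrl, 2 of the 16 fell.

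Of 16 genes of immature neutrophil granules, 3 rose and 3 fell in CIA+THz. The list median of 0.64 rested on genes of low level, since it was 0.20 with a pseudocount of 1 and -0.65 over the 9 members with a mean of at least 1, of which 3 rose and 4 fell. The members that rose were Camp, Ltf and Ngp. Ngp, neutrophilic granule protein, was 70.1, 88.7 and 41.6 in Ctrl, 120, 188 and 130 in CIA+THz and 265, 562 and 938 in CIA, with no overlap between any 2 groups (log2 fold change of CIA+THz 1.17 ± 0.29, unadjusted p = 0.00454 by limma). Chil3, a chitinase-like protein, was 60.6, 58.7 and 47.9 in Ctrl, 82.9, 81.6 and 96.3 in CIA+THz and 158, 143 and 159 in CIA, and its 0.64 in CIA+THz was under the fold limit. The members that fell were Mmp8, Lcn2 and Olfm4. Lcn2, the siderophore-binding lipocalin, was 333, 413 and 243 in Ctrl and 206, 197 and 155 in CIA+THz (log2 fold change -0.80), and had -0.62 without Ctrl replicate 2. Olfm4 (-0.97) kept its call only without Ctrl replicate 3. Without that library 4 members rose and 5 fell, and without Ctrl replicate 1 the numbers were 5 and 2. Without Ctrl replicate 2, 4 rose and 1 fell. Without CIA+THz replicate 2 or 3, 4 rose and 2 fell.

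**Figure D4:**
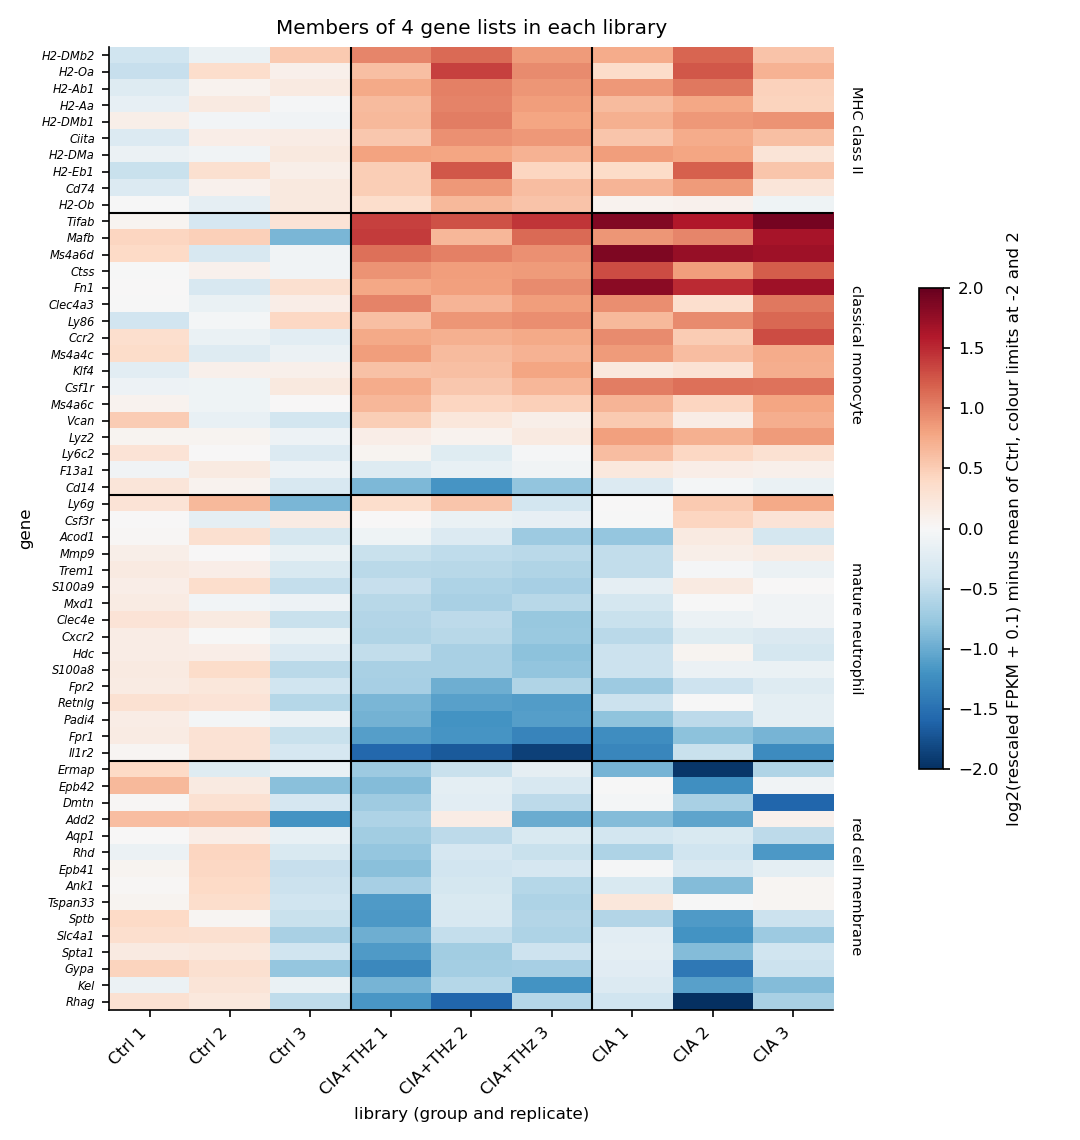
Rows are the tested members of 4 gene lists and columns the 9 libraries, and the color is log2(rescaled FPKM + 0.1) minus the mean of the 3 Ctrl libraries, limited to -2 and 2. All 10 MHC class II rows are red in all CIA+THz columns, most mature neutrophil rows are deeper blue in CIA+THz than in CIA, and in Ctrl replicate 3 neutrophil and red cell rows are mostly blue.

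Innate sensors and inflammatory mediators were partly lower in CIA+THz. Of 20 Toll-like receptor and inflammasome genes, 5 fell and none rose. Tlr8, a sensor of RNA in endosomes, was 48.3, 48.0 and 51.0 in Ctrl, 27.6, 30.3 and 24.96 in CIA+THz and 26.8, 26.3 and 36.7 in CIA (log2 fold change of CIA+THz -0.83 ± 0.11, unadjusted p = 8.38e-05 by limma). Tlr2, a sensor of bacterial lipoproteins, was 20.9, 19.7 and 15.1 in Ctrl and 9.50, 10.6 and 9.69 in CIA+THz, and Tlr4, the lipopolysaccharide receptor, fell by 0.82. Nlrp3, an inflammasome sensor, was 29.9, 22.9 and 26.4 in Ctrl, 16.6, 12.8 and 17.0 in CIA+THz and 19.7, 27.1 and 25.95 in CIA. Its log2 fold change was -0.77 in CIA+THz, -0.64 there without CIA+THz replicate 2, and -0.13 in CIA. Il1rn, the interleukin-1 receptor antagonist, fell by 0.70, with -0.65 without CIA+THz replicate 3 and -0.63 without Ctrl replicate 1. Il1b, which this antagonist opposes, was 359, 259 and 350 in Ctrl and 302, 281 and 320 in CIA+THz and did not pass. The list median was -0.11, and 0.19 on FPKM as deposited, where none of the 20 fell past the criterion and 3 rose, so these 5 calls rested on the scaling.

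The median of 19 TNF, IL-6 and NF-kB feedback genes was 0.07. Tnf alone passed (5.26% of the list, against 7.88% of all genes tested). It was 1.99, 1.89 and 2.41 in Ctrl, 0.830, 0.771 and 0.681 in CIA+THz and 0.988, 1.11 and 1.45 in CIA, a fall of 1.35 ± 0.29 on the log2 scale (unadjusted p = 0.00206 by limma), and of 1.07 on FPKM as deposited. Foxp3 rose and Tnf and Il1rn fell among 16 tested genes whose proteins the study also assayed. The study measured TNF-α in joint and serum, IL-1ra in serum and FOXP3 in spleen, so blood RNA is an unlike measure. Whether the sequenced mice were among those assayed is not stated. Mmp9, the gelatinase of neutrophils, was 158, 147 and 132 in Ctrl and 107, 103 and 99.8 in CIA+THz (log2 fold change -0.49), and Trem1, a myeloid amplifier of inflammation, had -0.57, both under the fold limit. Ccl2, a monocyte-attracting chemokine, was at 2.44, 0.634 and 0.482 in Ctrl, was listed at 0.241, 0 and 0 in CIA+THz and at 0 in all CIA libraries. It and Xcr1 were the 2 of 18 chemokine genes that fell (11.1%, against 7.88% of all genes tested that passed). Without CIA+THz replicate 3, 4 of the 18 fell. Dcstamp, needed for osteoclast fusion, was 4.94, 6.57 and 4.51 in Ctrl and 2.29, 1.16 and 3.54 in CIA+THz, the only one of 11 osteoclast precursor genes to pass. It missed the criterion without Ctrl replicate 2 (-1.12).

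A few interferon genes passed the criterion in CIA+THz, and each lost its call in at least 1 fit that left out 1 library. Of 25 type I interferon-stimulated genes, 2 rose, Oas1a and Zbp1, and neither kept its call without Ctrl replicate 2 (0.82 and 0.58) or CIA+THz replicate 1 (1.00 and 0.56). Oas1a also lost it without CIA+THz replicate 2 (1.07) or Ctrl replicate 3 (1.13), and Zbp1 without CIA+THz replicate 3 (0.71). The 2 of 25 are 8.0%, near the 7.88% of all genes tested that passed, and on FPKM as deposited 7 rose. The list median was 0.23, and 6 of the 25 rose in CIA. The number that rose in CIA+THz was between 0 and 5 when 1 library was left out, at 5 without Ctrl replicate 1, 4 without CIA+THz replicate 2 and 3 without Ctrl replicate 3. Of 15 interferon-gamma-inducible GTPases, Gbp2, Iigp1 and Gbp8 rose (20.0%), and 7 rose on FPKM as deposited. Gbp2 was 14.1, 18.1 and 12.4 in Ctrl and 25.4, 18.9 and 35.1 in CIA+THz (log2 fold change 0.80), and lost its call without CIA+THz replicate 3 (0.58) or Ctrl replicate 3 (0.68). Iigp1 (0.72) lost it without CIA+THz replicate 1 (0.67) or 3 (0.62) or Ctrl replicate 1 (0.74) or 3 (0.49). Gbp8 was listed at 0 in the 3 Ctrl libraries and in CIA+THz replicate 2, and at 1.18 and 1.40 in the other two, and kept its call only without CIA+THz replicate 2. None of the 15 passed without CIA+THz replicate 3 or Ctrl replicate 3, and 1 did so without CIA+THz replicate 1 or Ctrl replicate 1.

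Of 16 heat shock genes, 5 fell, none rose and 11 did not pass. Dnaja1, an Hsp40 co-chaperone, was 45.4, 42.4 and 35.3 in Ctrl, 21.2, 19.8 and 21.2 in CIA+THz and 29.9, 30.5 and 26.6 in CIA (log2 fold change of CIA+THz -0.98 ± 0.12, unadjusted p = 7.08e-05 by limma). Hsph1, an Hsp110 nucleotide exchange factor, was 19.5, 14.2 and 13.6 in Ctrl and 7.18, 7.48 and 7.43 in CIA+THz (log2 fold change -1.07). Hspa1a, an inducible Hsp70, fell by 1.05 from levels of 1.47 to 1.73. Hspa1b, its near-identical copy, fell by 0.81, and Hspb1, a small heat shock protein, by 1.31. Hspa1b kept its call only without Ctrl replicate 2, and Hspb1 lost it without CIA+THz replicate 1 (-1.25) or 2 (-1.08) or Ctrl replicate 1 (-0.86). The count was 3 without CIA+THz replicate 1, CIA+THz replicate 2 or Ctrl replicate 1. The list median was -0.25, and 0.05 on FPKM as deposited, where 1 of the 16 passed, so the direction of the list rested on the scaling.

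Among 15 integrated stress response genes, 3 fell and 1 rose. On FPKM as deposited, 1 fell and 4 rose, with a list median of 0.29 in place of -0.01, so the balance rested on the scaling. Without Ctrl replicate 1, 1 fell and 2 rose. Cebpb, one of those that fell, is described with the genes that switched between libraries. Slc7a11, the cystine importer, was 4.47, 3.48 and 2.99 in Ctrl and 1.48, 1.62 and 1.15 in CIA+THz (log2 fold change -1.30). Ddit3, the stress factor CHOP, fell by 0.73, with -0.59 without CIA+THz replicate 1 and -0.65 without Ctrl replicate 1. Asns, asparagine synthetase, rose from 5.61, 7.64 and 3.19 to 9.06, 13.8 and 10.9, was 13.02, 23.3 and 24.7 in CIA, and lost its call without CIA+THz replicate 2 (0.93). Of 16 clock genes, Dbp (1.10) and Tef (0.84), both PAR bZIP output factors, rose from levels between 0.879 and 2.25 in Ctrl. These are 12.5% of the list, against 7.88% of all genes tested that passed. Both lost their call without CIA+THz replicate 2 (1.19 and 0.60) or Ctrl replicate 3 (0.89 and 0.78), and Dbp also without CIA+THz replicate 3 (0.84) or Ctrl replicate 2 (0.98). Of 19 immediate early genes, 2 fell and 1 rose (15.8%). Jund, one of those that fell, is described with the genes that switched between libraries. Ier3 fell by 0.91, and lost its call without CIA+THz replicate 3 (-0.78). Egr3 rose by 1.23 but kept its call only without Ctrl replicate 3.

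Several red cell genes fell in CIA+THz. Of 15 red cell membrane genes, 7 fell, all 15 had a negative log2 fold change, and the median was -0.53. Kel, the Kell blood group protein, was 12.7, 16.4 and 12.5 in Ctrl, 7.19, 9.17 and 5.95 in CIA+THz and 11.4, 6.45 and 7.53 in CIA (log2 fold change of CIA+THz -0.90 ± 0.20, unadjusted p = 0.00248 by limma). Slc4a1, the band 3 anion exchanger, was 491, 486 and 250 in Ctrl and 198, 280 and 256 in CIA+THz, with overlap through Ctrl replicate 3. The number of the 15 that fell was 12 without Ctrl replicate 3, but 1 without Ctrl replicate 1, Ctrl replicate 2 or CIA+THz replicate 1. It was 4 without CIA+THz replicate 2 and 3 without CIA+THz replicate 3. On FPKM as deposited none passed and the median was -0.22.

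Of 15 erythroid factors and reticulocyte clearance genes, 7 fell and none rose, with a median of -0.72 (-0.41 on FPKM as deposited, where 2 fell). Klf1, the erythroid Kruppel-like factor, was 2.37, 2.01 and 1.505 in Ctrl, 0.570, 0.976 and 0.680 in CIA+THz and 0.654, 0.574 and 0.714 in CIA (log2 fold change of CIA+THz -1.30 ± 0.34, unadjusted p = 0.00634 by limma). Trim58, which helps expel the nucleus, was 4.82, 6.70 and 4.39 in Ctrl and 2.30, 1.83 and 2.43 in CIA+THz, a fall of 1.23. Both held without any 1 library. The count of 7 fell to 3 without CIA+THz replicate 1, Ctrl replicate 1 or Ctrl replicate 2 and to 4 without CIA+THz replicate 3. Alas2 was 85166, 102970 and 68755 in Ctrl, 47174, 55691 and 65083 in CIA+THz and between 86779 and 97383 in CIA, and its log2 fold change of -0.61 did not pass. Of 8 heme synthesis genes, Uros, the fourth enzyme of the pathway, rose by 0.86, and its gene overlaps Bccip. The share of the summed FPKM taken by Alas2 was also lower in CIA+THz, and its part in the white cell results was not tested. None of 15 platelet genes passed, with a median of -0.28 (0.03 on FPKM as deposited).

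Core cellular machinery was examined in further lists. Of 81 cytosolic ribosomal protein genes, 2 fell, Rpl41 (-0.86) and Rps27, with a median of 0.01. Of 78 respiratory chain subunits, Cox6c (-0.75), Uqcrh (-0.70) and Atp5mpl (-0.72) fell. On FPKM as deposited none of the 78 fell and 12 rose, with a median of 0.37 in place of 0.06, and with upper-quartile factors 2 fell and 4 rose. Cox6c, Uqcrh and Atp5mpl lost their call without CIA+THz replicate 1 (-0.67, -0.62 and -0.63) or Ctrl replicate 2 (-0.64, -0.52 and -0.62), and Atp5mpl also without Ctrl replicate 1 (-0.66). Of 37 proteasome subunits, Psmb10, Psmc5 and Psmd3 rose and none fell. That is 8.11% of the list, near the 7.88% of all genes tested that passed, and 11 rose on FPKM as deposited. Psmb10, a catalytic subunit of the immunoproteasome, was 35.9, 41.9 and 41.6 in Ctrl, 72.0, 63.6 and 71.4 in CIA+THz and 73.9, 57.6 and 48.7 in CIA (log2 fold change of CIA+THz 0.79 ± 0.11, unadjusted p = 0.000117 by limma). Psmd3 (0.71) had 0.65 without CIA+THz replicate 3 and 0.58 without Ctrl replicate 1. Of the 78 respiratory subunits, 6 fell and 3 rose without Ctrl replicate 3. Of 29 cell cycle genes, Mki67, the proliferation antigen, fell from 33.5, 39.5 and 30.2 to 13.2, 18.8 and 21.9, and 5 of the 29 fell without Ctrl replicate 3. Of 20 glycolysis genes, Pfkm fell by 0.85, and 3 of the 20 fell without Ctrl replicate 3. None of 14 ubiquitously expressed genes and none of 16 antioxidant genes passed.

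Several calls came from genes whose libraries switched between a high level and almost none within a group. Jund, a subunit of AP-1, was 30.9, 30.7 and 26.4 in Ctrl, 0.737, 1.06 and 24.5 in CIA+THz and 0.647, 0.831 and 29.1 in CIA. Cebpb, a myeloid transcription factor, was 59.1, 58.0 and 46.9 in Ctrl and 61.6, 2.08 and 1.52 in CIA+THz, and Eif3j2, a close copy of Eif3j1, was listed at 0, 15.7 and 0 in Ctrl and at 17.8, 17.3 and 15.7 in CIA+THz. Rps27 was 773, 781 and 790 in Ctrl and 0.595, 1033 and 1.11 in CIA+THz. Its retrotransposed copy Rps27rt, named here after its values were seen, was the mirror image, at 69.3, 58.5 and 66.9 in Ctrl and 1676, 68.4 and 1544 in CIA+THz. The cause of these patterns was not tested. The log2 fold changes of Jund (-3.35), Cebpb (-3.18), Eif3j2 (4.98), Rps27 (-6.36) and Rps27rt (3.11) each lost the criterion in 5 of the 6 fits that left out 1 library.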

How the data were processed

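Blood RNA libraries were prepared with a kit that does not mark strand and were sequenced paired-end by the authors. They deposited 1 FPKM table, the unit of all values here. Per the labels the build was mm10 and the tools included bcl2fastq 2.0, HISAT2 and StringTie, and their settings are not given in the sources used here. From these values, median-of-ratios factors were computed over the 10312 genes above 0 in all 9 libraries, and log2(rescaled FPKM + 0.1) was fitted with limma 3.58.1 (lmFit, eBayes with trend) in R 4.3.3, on the 6 libraries of a comparison. A gene was tested where its rescaled FPKM averaged 0.1 or more over the 9 libraries, which left 12366. The criterion (unadjusted p under 0.05, log2 fold change beyond 0.67 in either direction) follows the study. Grouping followed the sample labels. The script was tested on simulated data. Depth is unknown, so no intervals for counting error are given.

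Genes were named by rule, namely those past the adjusted threshold, the 10 largest changes in each direction with a mean of at least 5 and no overlap, up to 6 members of each list by p with the markers of cell type lists, and genes of proteins the study measured. Further genes that passed in a list were named after their values were seen. The lists and rules were chosen with earlier results of these data known. GENCODE M21 coordinates were matched by symbol for 20506 of 20926 genes. Genes that overlap others, or share reads with a close copy, are uncertain. A few genes that entered the fits and counts are not reported here.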

Additional observations from a re-analysis of the deposited data

How the results depend on the processing

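In CIA+THz against Ctrl, 975 genes passed the criterion, 1720 did so on FPKM as deposited (93.0% of them higher, against 58.9%), 13 with the Benjamini-Hochberg adjusted p and 2236 with the unadjusted p alone. Leaving out 1 library gave between 724 and 1487, the highest without Ctrl replicate 3. Other settings stayed within 1.5 times of 975, from 653 with a pseudocount of 1 to 1005 with upper-quartile factors. The number past the adjusted threshold varied more, from 2 with the replicate block and 6 without a filter to 89 with a mean of at least 1 and 95 with all 3 groups in 1 fit. It lay between 2 and 6 when 1 library was left out. In CIA against Ctrl, 1118 genes passed, 19 with the adjusted p and 2140 with the unadjusted p alone. Of the 748 list genes tested, 117 passed in CIA+THz, 7 with the adjusted p, 240 with the unadjusted p alone and between 96 and 150 when 1 library was left out. The sources used here do not say whether replicate numbers pair animals. Deviations of same-numbered CIA+THz and Ctrl libraries correlated between -0.02 and 0.03. With 3 libraries a group, such values cannot show whether a pairing exists. With the replicate block, 967 genes passed the criterion and 2 the adjusted threshold.

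Of 129 named genes that passed, 70 did so without each of the 6 libraries, 91 on FPKM as deposited, 120 with upper-quartile factors, and none changed direction in these fits. Genes with a log2 fold change near 0 changed sign. When 1 library was left out, Cd3e ranged from -0.03 to 0.13, Cd4 from -0.15 to 0.14 and Cd8a from -0.08 to 0.13. Cd8a was -0.0 with factors over the 6 libraries, and Il1b was 0.22 on FPKM as deposited. As the depth is unknown, the counting error of genes near 0 cannot be given.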
